A study of Mus musculus with 12 samples.

Results

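The acyl-CoA thioesterases form an enzyme family whose genes are named Acot in the mouse, and 10 of them, Acot1, Acot2, Acot3, Acot4, Acot5, Acot7, Acot8, Acot9, Acot12 and Acot13, were followed here along the small intestine in old and young mice fed a high-fat or low-fat diet. Each gene was represented by the brightest of the array's probe sets that list exactly 1 gene symbol, by the mean of the 12 arrays, and each of the 10 had 1 such probe set. They are 10 of 19938 genes measured in this way. The limit for a gene to be tested was an intensity above 50 on any 1 of the arrays, and 8 of the 10 were among the 11929 genes that passed it, while Acot3 and Acot5 stayed under the limit on every array.

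The series holds 12 Affymetrix Mouse Gene 1.0 ST arrays, each read out as log2 intensity after normalization by the authors with the Robust Multi-array Average (RMA) method. All mice were male C57BL/6J mice, 21 months (old) or 4 months (young) of age, which ate a low-fat diet as a run-in and then for 2 weeks a purified high-fat diet (45% of energy from fat) or low-fat diet (10% of energy from fat), both with palm oil as the fat source, and were killed in the postprandial state. Scrapings of mucosa and submucosa of the proximal, middle and distal segment were made, and RNA of 8 old or 6 young mice was pooled, so that each segment, age and diet had 1 array: old high-fat, old low-fat, young high-fat and young low-fat. Since 1 set of mice gave all 3 segments of a group, the 12 arrays represent 4 pools, and p-values measure the spread between pools and arrays, not between individual mice. The tests draw the spread of each gene towards that of all genes, most strongly over the pool means.

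Acyl-CoA thioesterases split fatty acyl-CoA into a free fatty acid and coenzyme A, the reverse of what the acyl-CoA synthetases do, and so set the balance between activated and free fatty acids in each compartment of the cell. Among the genes followed here, type I enzymes (Acot1 to Acot5) share an alpha/beta-hydrolase fold, and type II enzymes (Acot7, Acot8, Acot9, Acot12 and Acot13) a hotdog fold. In the enterocyte, dietary fatty acids are activated to acyl-CoA and used for triglyceride synthesis and chylomicron assembly or for oxidation in mitochondria and peroxisomes, and in mouse liver several type I genes are known targets of the nuclear receptor PPARalpha. By compartment, Acot1, Acot7 and Acot12 are cytosolic, Acot2, Acot9 and Acot13 mitochondrial (Acot13 associates with mitochondria), and Acot3, Acot4, Acot5 and Acot8 peroxisomal.

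The type I genes followed here lie next to each other on chromosome 12, in the order Acot2, Acot1, Acot4, Acot3 and Acot5, within 88.2 kb (chr12:83987861-84076024, RefSeq on GRCm38.p6). They are close paralogs, so the probe sets of these genes may share signal, and how far they do was not tested. The type II genes followed here are spread over other chromosomes: Acot8 on chromosome 2, Acot7 on chromosome 4, Acot12 and Acot13 on chromosome 13 and Acot9 on the X chromosome. The 250 bases before the RefSeq start of Acot2, Acot1 and Acot4, the neighbouring genes that rose together on the high-fat diet, are shown 5′ to 3′ on the plus strand (GRCm38.p6, chr12:83987611-83987860 for Acot2, chr12:84009252-84009501 for Acot1 and chr12:84038129-84038378 for Acot4), with CCAAT and AGGTCA on either strand in capitals. The Acot4 start used in this window lies 1125 bases inside the gene's annotated span.
Acot2: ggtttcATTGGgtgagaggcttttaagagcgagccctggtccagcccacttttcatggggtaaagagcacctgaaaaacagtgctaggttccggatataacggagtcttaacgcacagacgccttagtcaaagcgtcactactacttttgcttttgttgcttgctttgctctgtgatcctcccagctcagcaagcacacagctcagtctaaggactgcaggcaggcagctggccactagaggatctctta
Acot1: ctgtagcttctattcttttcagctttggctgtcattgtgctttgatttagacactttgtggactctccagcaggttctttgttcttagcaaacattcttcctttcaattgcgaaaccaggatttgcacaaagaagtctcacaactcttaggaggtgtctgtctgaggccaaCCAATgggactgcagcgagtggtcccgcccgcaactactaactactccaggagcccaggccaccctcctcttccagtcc
Acot4: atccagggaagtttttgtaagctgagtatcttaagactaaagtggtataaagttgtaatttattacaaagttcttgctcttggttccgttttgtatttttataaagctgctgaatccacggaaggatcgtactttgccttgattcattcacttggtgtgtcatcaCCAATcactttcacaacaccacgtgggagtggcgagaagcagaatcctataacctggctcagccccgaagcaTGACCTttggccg
Each of the 3 windows held 1 CCAAT, the core of the CCAAT box, whose first printed base lay 244 bases before the start in Acot2 (as ATTGG), 79 bases before it in Acot1 and 85 bases before it in Acot4. Acot4 also held AGGTCA (as TGACCT) 13 bases before its start, a motif that nuclear receptors such as PPARalpha read in pairs. In windows of 250 bases before to 50 bases after the start, searched on both strands, CCAAT occurred in 37.4% of all 32851 windows and in those of 7 of the 9 matched members, and AGGTCA in 16.3% of all windows and in those of Acot3, Acot4, Acot5 and Acot12. A pair of AGGTCA copies in the same direction, separated by a single base of any kind, was found in 13 of all windows and in no member's window. These letters describe the windows only.

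All 12 arrays had a small-intestinal pattern. The 10 enterocyte markers averaged between 12.2 and 12.5 on every array, and the ileum markers averaged 5.20 to 6.07 on proximal, 7.46 to 9.48 on middle and 11.7 to 11.9 on distal arrays. Pancreatic acinar transcripts averaged 10.8 to 12.2 in the proximal segment against 5.50 to 6.55 elsewhere. Their proximal averages were 11.5 and 12.2 in old and young high-fat mice, against 11.1 and 10.8 in old and young low-fat mice. The genes of that list were removed before the tests, which does not change the values of other genes. The part of acinar RNA in those values was not tested. In scrapings, fewer cells of a type and less RNA per cell cannot be told apart.

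Of the 10 thioesterase genes, 7 were over the intensity limit on all 12 arrays, and Acot1 was over it on 11, with 5.637 on the middle array of young low-fat mice, just under the limit of 5.644 on the log2 scale. Acot3 lay between 4.06 and 4.72 and Acot5 between 3.50 and 4.26. Both are peroxisomal type I enzymes, so the peroxisomal group was represented by Acot4 and Acot8 in what follows.

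**Figure D1:**
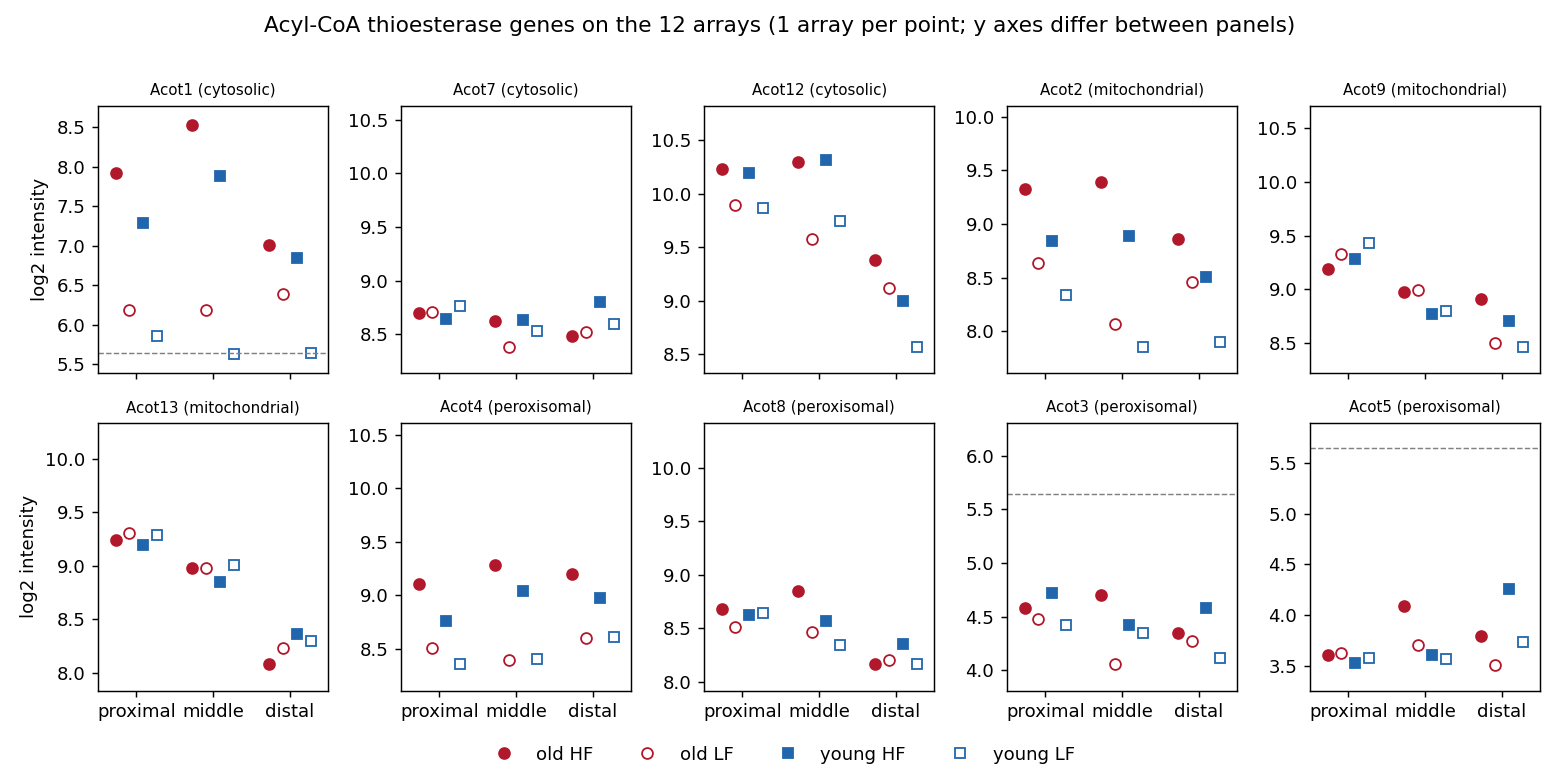
Log2 intensity (y axis, each panel with its own range) of the 10 thioesterase genes on the 12 arrays by segment (x axis). Filled symbols are high-fat (HF) and open symbols low-fat (LF) arrays, red circles old and blue squares young mice, and the dashed line is the intensity limit of 5.64 where it falls in the panel. Acot1, Acot2 and Acot4 had each high-fat symbol above both low-fat symbols of its segment, and Acot13 and Acot12 were lowest in the distal segment.

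The first comparison asked which thioesterase genes differed between the high-fat and the low-fat diet. Of the 8 genes tested on the means of the 4 pools, 4 rose (Acot1, Acot2, Acot4 and Acot12) and none fell at a Benjamini-Hochberg adjusted p under 0.05 in limma. Over all 11929 genes, 2.54% rose. The median difference of the 8 was 0.30 on the log2 scale, beside -0.01 over all genes tested. The genes that rose were found in all compartments: 2 of 3 cytosolic, 1 of 3 mitochondrial and 1 of 2 tested peroxisomal genes. By enzyme type, all 3 type I genes tested and 1 of the 5 type II genes rose.

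Acot1, the cytosolic type I enzyme, showed the largest difference in the family. In the proximal segment it had 7.93 in old and 7.29 in young high-fat mice, against 6.19 in old and 5.86 in young low-fat mice. In the middle segment the values were 8.52 and 7.88 in old and young high-fat mice, against 6.19 and 5.64 in old and young low-fat mice. In the distal segment they were 7.01 and 6.85 in old and young high-fat mice, against 6.40 and 5.65 in old and young low-fat mice. The 6 high-fat and the 6 low-fat arrays did not overlap, even across segments. The share of all genes separated by diet in this way was not counted. Over the pool means Acot1 was 3.02-fold higher on the high-fat diet, a difference of 1.59 ± 0.05 (SE, 2 pools per diet, limma adjusted p = 0.000125), the fourth largest rise among the 11929 genes.

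Acot2, its mitochondrial neighbour, had 9.32 and 8.84 in old and young high-fat mice in the proximal segment, against 8.63 and 8.34 in old and young low-fat mice. The middle values were 9.39 and 8.89 in high-fat mice, against 8.07 and 7.85 in low-fat mice, and the distal values 8.86 and 8.50 in high-fat mice, against 8.46 and 7.89 in low-fat mice (old first in each pair). Within each segment both high-fat arrays were above both low-fat arrays. The share of all genes whose diets were separate within segments was not counted. The pool means differed by 0.76 ± 0.05 (SE, limma adjusted p = 0.000863), or 1.69-fold.

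Acot4, a peroxisomal enzyme that acts on succinyl-CoA and other dicarboxylyl-CoAs, had 9.11 and 8.76 in old and young high-fat mice, against 8.50 and 8.36 in old and young low-fat mice, in the proximal segment. Its middle values were 9.28 and 9.04 in high-fat mice, against 8.40 and 8.41 in low-fat mice, and its distal values 9.20 and 8.97 in high-fat mice, against 8.60 and 8.61 in low-fat mice (old first). As for Acot1, no low-fat array reached the lowest high-fat array, a pattern whose share over all genes was not counted. The difference over the pool means was 0.58 ± 0.06 (SE, limma adjusted p = 0.00753), or 1.49-fold.

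Acot12, a cytosolic type II enzyme that prefers acetyl-CoA, had 10.24 and 10.20 in old and young high-fat mice, against 9.90 and 9.86 in old and young low-fat mice, in the proximal segment. In the middle segment it had 10.30 and 10.32 in high-fat mice, against 9.58 and 9.74 in low-fat mice, and in the distal segment 9.38 and 9.002 in high-fat mice, against 9.12 and 8.57 in low-fat mice (old first). The diets were separate in the proximal and middle segment and overlapped in the distal segment, where the old low-fat array was above the young high-fat array. The pool means differed by 0.44 ± 0.05 (SE, limma adjusted p = 0.00653), or 1.36-fold, and without the middle segment the adjusted p was 0.0721.

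The remaining 4 genes, all of type II, did not pass the test for diet over the pool means. Acot8, a peroxisomal enzyme of broad substrate range, differed by 0.15 ± 0.05 (SE, limma adjusted p = 0.130, 95% confidence interval 0.03 to 0.26), with the high-fat array higher in 4 of 6 pairs. Acot7, a cytosolic enzyme known for its high level in brain, differed by 0.06, Acot9, a mitochondrial enzyme, by 0.05 and Acot13 by -0.07, and no 95% interval of these 3 reached beyond 0.18 in either direction. Acot3 was higher on the high-fat array in 6 of 6 pairs and Acot5 in 4 of 6, both below the intensity limit and therefore not tested.

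**Figure D2:**
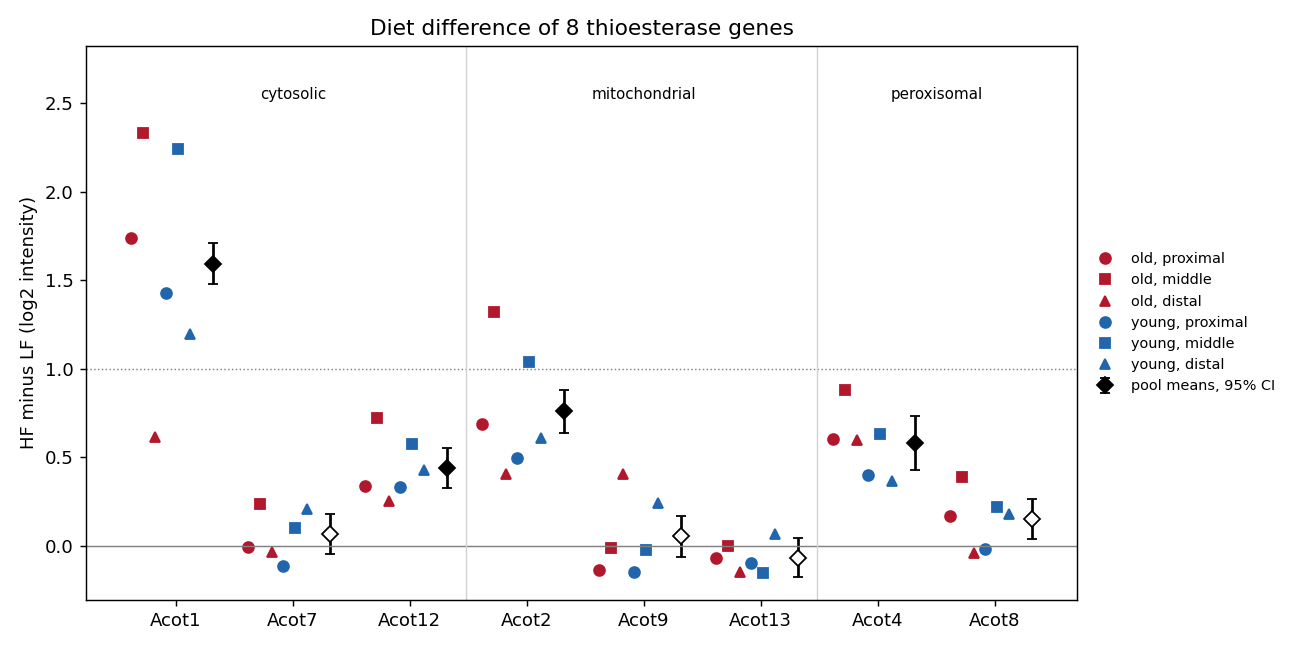
High-fat minus low-fat difference (y axis, log2 intensity) of the 8 thioesterase genes over the limit, by compartment (x axis). Red and blue symbols are the single pairs of arrays in old and young mice by segment, black diamonds the differences of the pool means with 95% confidence intervals, filled where the limma adjusted p was under 0.05, and the dotted line marks 2-fold. All 6 pairs of Acot1, Acot2, Acot4 and Acot12 lie above 0, and the middle pairs of Acot1 and Acot2 are their highest.

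Pair by pair, without a test, the high-fat array was higher in all 6 pairs for 4 of the 8 genes, the same Acot1, Acot2, Acot4 and Acot12, beside 5.62% of all genes. At the 2-fold threshold Acot1 was past it in 5 of 6 pairs and Acot2 in both middle pairs. The share of all genes past 2-fold upwards was 0.226% in the old and 0.344% in the young proximal pair, 0.419% in the old and 0.360% in the young middle pair, and 0.184% in the old and 0.134% in the young distal pair. Acot1 was 3.34-fold higher in old and 2.69-fold higher in young mice in the proximal segment, 5.03-fold and 4.73-fold in the middle segment, and 1.53-fold and 2.29-fold in the distal segment (old first). Acot2 was 2.50-fold higher in old and 2.05-fold higher in young mice in the middle segment.

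Within a segment the old and the young pair were the only repeats. In the proximal segment only Acot1 rose (1.58 ± 0.14, SE, limma adjusted p = 0.00794), where 0.235% of all genes rose, and without any 1 of the 4 proximal arrays its adjusted p was 0.0502 to 0.0524. In the middle segment Acot1 (2.29, adjusted p = 0.000494), Acot2 (1.18, adjusted p = 0.00211), Acot4 (0.76, adjusted p = 0.0123) and Acot12 (0.65, adjusted p = 0.00937) rose in the same limma fit, where 1.31% of all genes rose. Without any 1 of the 4 middle arrays Acot4 and Acot12 no longer passed (adjusted p = 0.0974 to 0.314 and 0.102 to 0.283), and Acot2 did not pass without either old middle array (adjusted p = 0.0818). Acot1 passed without any 1 of them (adjusted p = 0.0240 to 0.0254). Each of these values rests on the 1 pair left in the segment, with the spread taken from the other segments.

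In the distal segment no member passed the limma test, where 0.352% of all genes rose. Acot1 had the largest distal difference of the family (0.91 ± 0.14, SE, adjusted p = 0.0514), and it passed under 7 other settings, among them median centring (adjusted p = 0.0291). At an unadjusted p under 0.05, 5 of the 8 genes and 2089 of all genes differed by diet in the distal segment. With an intensity trend and robust variance 5 of the 8 were called, where 240 of all genes rose, against 42 in the main fit. Acot2 differed by 0.51, Acot4 by 0.48, Acot12 by 0.34 and Acot9 by 0.32 there, with limma adjusted p between 0.0912 and 0.132.

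Whether the diet difference itself changed along the intestine was tested with the same limma fit. For Acot1 the difference was 0.68 smaller in the distal than in the proximal segment (-0.68 ± 0.20, SE, adjusted p = 0.422), 0.70 larger in the middle than in the proximal segment (adjusted p = 0.541) and 1.38 smaller in the distal than in the middle segment (-1.38 ± 0.20, SE, adjusted p = 0.0796). For Acot2 it was 0.67 smaller in the distal than in the middle segment (-0.67 ± 0.14, SE, adjusted p = 0.195). None of the 8 genes passed in any of these 3 comparisons, in which 0.0503% (distal against proximal), 0.0251% (middle against proximal) and 0.0754% (distal against middle) of all genes passed in either direction. At an unadjusted p under 0.05, 2, 3 and 4 of the 8 genes differed, beside 1134, 803 and 1581 of all genes. With an intensity trend and robust variance, Acot1 (adjusted p = 0.00400) and Acot2 (adjusted p = 0.0221) passed for distal against middle. There 138 of all genes passed, against 9 in the main fit.

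The diet difference was also taken in old and in young mice separately, without a test. Averaged over the segments it was 1.56 in old and 1.62 in young mice for Acot1, 0.81 in old and 0.71 in young mice for Acot2, 0.69 in old and 0.47 in young mice for Acot4, and 0.44 in old and 0.45 in young mice for Acot12. Acot4 was the only one of these 4 with a larger difference in old mice in all 3 segments. With 1 pool per age and diet, an interaction of age and diet has no repeat and was not tested.

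The second comparison asked which thioesterase genes differed between old and young mice. Over the pool means 2 of the 8 genes rose with age, Acot1 and Acot2, and none fell, where 0.746% of all genes rose. Pool means of Acot1 were 7.82 in old and 7.34 in young mice on the high-fat diet, and 6.26 in old and 5.72 in young mice on the low-fat diet. Those of Acot2 were 9.19 in old and 8.74 in young mice on the high-fat diet, and 8.39 in old and 8.03 in young mice on the low-fat diet. In both genes the old pool was above the young pool on either diet, while the diets were farther apart than the ages.

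Acot1 was 0.51 ± 0.05 higher in old mice (SE, 2 pools per age, limma adjusted p = 0.00725), or 1.43-fold, and Acot2 0.40 ± 0.05 higher (SE, limma adjusted p = 0.0144), or 1.32-fold. The call of Acot2 ended without the distal segment (adjusted p = 0.0845) and without the intensity filter (adjusted p = 0.0550). Both genes were higher in the old array in all 6 pairs, as were 6.09% of all genes, and the single pairs ranged from 1.12-fold to 1.68-fold for Acot1 and from 1.16-fold to 1.48-fold for Acot2. Acot1 and Acot2 may share probe signal, as above, and how far their age differences are independent was not tested.

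The other 6 genes did not pass the test for age over the pool means (limma adjusted p between 0.209 and 0.795). The largest of their differences was 0.16 in Acot4 (95% confidence interval 0.00 to 0.31), which was higher in old mice in all 3 high-fat pairs, by 0.22 to 0.35, and lay between -0.01 and 0.14 in the low-fat pairs. Within segments none of the 8 genes passed, where the share of all genes that rose was 0.0251% proximally, 0.00838% in the middle segment and 0.159% distally. At an unadjusted p under 0.05, 3 of the 8 genes differed in each segment, beside 1032 (proximal), 1047 (middle) and 2258 (distal) of all genes. In the distal segment Acot12 differed by 0.46 (limma adjusted p = 0.0639), with 9.38 in old and 9.002 in young high-fat mice and 9.12 in old and 8.57 in young low-fat mice, and Acot2 also by 0.46 (adjusted p = 0.111). With an intensity trend and robust variance both were called, where 261 of all genes rose, against 19 in the main fit.

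All 7 smooth muscle markers fell with age over the pool means (median -0.84), where 254 of all 11929 genes fell. The mean level of the 7 lay between 6.31 and 8.15 on the old arrays and between 6.79 and 9.14 on the young arrays. Of the same 7 markers 4 also fell on the high-fat diet (median -0.28), where 371 of all genes fell. The mean level of the 7 was 6.40 to 8.67 on high-fat and 6.31 to 9.14 on low-fat arrays. All 7 were over the intensity limit on at least 1 array, but only 5 on the proximal old high-fat and 6 on the proximal old low-fat array. None of the 10 enterocyte markers passed for age, and 1 of the 10, Apoa4, rose on the high-fat diet. Of 6 tested adipocyte markers 2 fell with age (Fabp4 and Retn, list median -0.20) and 1 rose with diet (Cidec, list median 0.17). The mean level of the adipocyte markers lay between 6.37 and 7.06 on old and 6.36 and 7.30 on young arrays. It lay between 6.55 and 7.30 on high-fat and 6.36 and 7.17 on low-fat arrays. Of 3 tested ileum markers 2 fell with age (Fabp6 and Slc10a2, median -0.58), and with diet Slc10a2 rose and Fgf15 fell. Hp, 1 of 2 tested hepatocyte markers, rose with diet, while Alb, Apoh and Fgb were under the limit on every array, and none of the 3 tested B cell markers passed for either. The part of these shifts in the thioesterase differences was not tested.

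**Figure D3:**
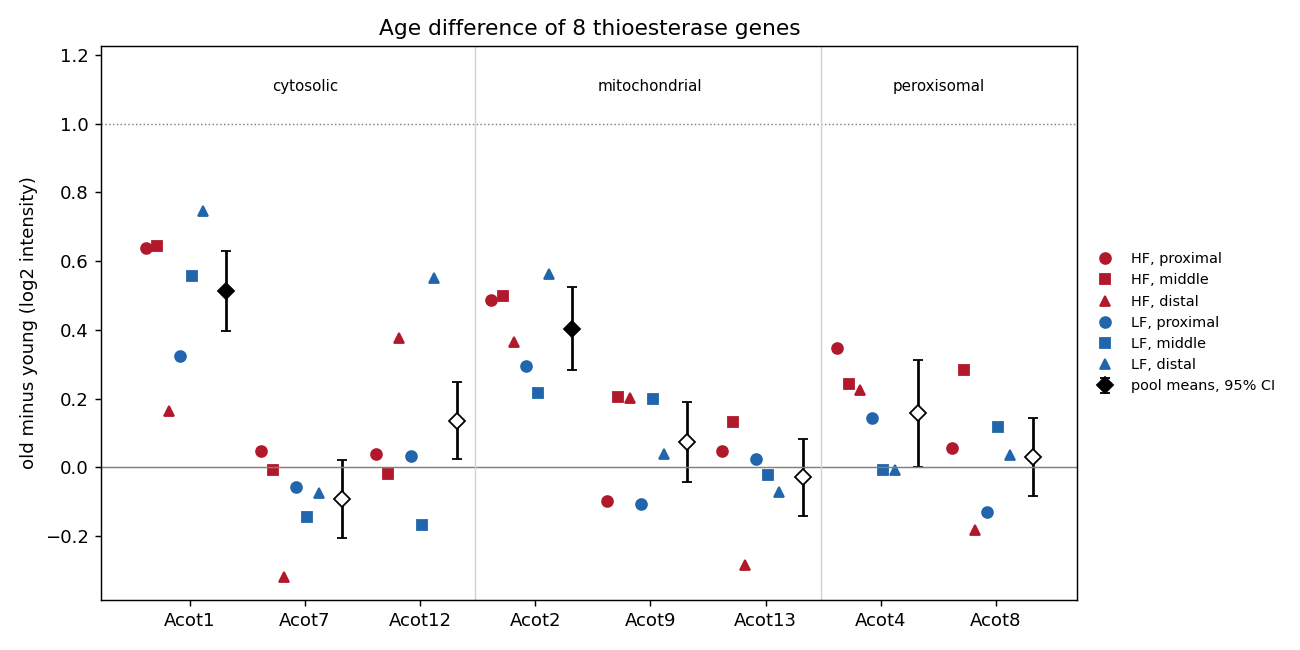
Old minus young difference (y axis, log2 intensity) of the 8 thioesterase genes over the limit, by compartment (x axis). Red and blue symbols are the single pairs of arrays on the high-fat (HF) and low-fat (LF) diet by segment, black diamonds the differences of the pool means with 95% confidence intervals, filled where the limma adjusted p was under 0.05. Acot1 and Acot2 have all 6 pairs above 0, and no pair reaches the dotted line at 2-fold.

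The third comparison set the segments against each other within the 4 pools. From proximal to distal, 5 of the 8 genes fell (Acot12, Acot13, Acot9, Acot8 and Acot2) and none rose, where 27.5% of all genes fell in the same limma fit. From proximal to middle 2 of the 8 fell, Acot9 and Acot13, where 11% of all genes fell. From middle to distal 3 of the 8 fell, Acot12, Acot13 and Acot8, where 20.0% of all genes fell. All 3 mitochondrial genes were among those lower in the distal segment, with 1 of 3 cytosolic and 1 of 2 tested peroxisomal genes.

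Acot13, the mitochondria-associated hotdog enzyme, fell at each step. The proximal values were 9.24, 9.31, 9.19 and 9.29, the middle values 8.98, 8.98, 8.85 and 9.004 and the distal values 8.09, 8.23, 8.37 and 8.30 (old high-fat, old low-fat, young high-fat and young low-fat). No array of one segment reached into the range of another. The share of all genes whose segments were separate, here or for the genes below, was not counted. It was 2.01-fold lower in the distal than in the proximal segment (-1.01 ± 0.07, SE, 4 pools, limma adjusted p = 9.34e-07), and it differed by -0.71 between distal and middle (adjusted p = 3.72e-05) and by -0.30 between middle and proximal (adjusted p = 0.00904, and 0.0659 without the old low-fat pool).

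Acot12 fell mainly beyond the middle segment. It averaged 10.05 proximally, 9.98 in the middle segment and 9.02 distally, and every distal array was below every proximal and middle array. Distal against middle it differed by -0.96 ± 0.12 (SE, limma adjusted p = 0.000204), and distal against proximal by -1.03 ± 0.12 (SE, adjusted p = 4.35e-05), or 2.04-fold. Its difference between middle and proximal was -0.07 (adjusted p = 0.730).

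Proximal values of Acot9 were 9.19, 9.33, 9.29 and 9.43, middle values 8.97, 8.99, 8.77 and 8.79 and distal values 8.90, 8.50, 8.70 and 8.46, in the same order of pools. The proximal arrays were above all others, and the middle and distal arrays overlapped. Distal against proximal it differed by -0.67 ± 0.10 (SE, limma adjusted p = 0.000302), and middle against proximal by -0.43 ± 0.10 (SE, adjusted p = 0.0126), a call that ended without the young high-fat pool (adjusted p = 0.0753) or the young low-fat pool (adjusted p = 0.0595).

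Acot8 ran at 8.68, 8.51, 8.62 and 8.64 on the proximal, 8.85, 8.47, 8.57 and 8.35 on the middle and 8.17, 8.21, 8.35 and 8.17 on the distal arrays. Its distal arrays were below the proximal arrays, and the young high-fat distal array and the young low-fat middle array lay at about the same level. It differed by -0.39 ± 0.09 between distal and proximal (SE, limma adjusted p = 0.00299) and by -0.33 ± 0.09 between distal and middle (SE, adjusted p = 0.0127, and 0.0508 without the old low-fat pool).

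Acot2 fell as well, by 1.28-fold, with a difference of -0.36 ± 0.13 between the distal and the proximal segment (SE, limma adjusted p = 0.0408). Its proximal and distal arrays overlapped across diets, and the call ended without the old high-fat pool (adjusted p = 0.0769), the young high-fat pool (0.0862) or the young low-fat pool (0.125), with quantile normalization (0.0814) and without the intensity filter (0.0540). The other 3 genes passed in none of the segment comparisons. Acot1 was 0.34 lower in the distal than in the proximal segment (-0.34 ± 0.23, SE, limma adjusted p = 0.245), Acot4 0.16 higher (adjusted p = 0.0782) and Acot7 lower by 0.10 (-0.10 ± 0.07, SE, adjusted p = 0.260), with Acot7 between 8.38 and 8.80 on all 12 arrays. Acot4 was thus the only tested member whose mean was higher in the distal than in the proximal segment, and with quantile normalization its difference of 0.23 passed (adjusted p = 0.0196). Mean levels of the smooth muscle markers ran from 6.31 to 7.25 on proximal, 7.01 to 7.77 on middle and 7.41 to 9.14 on distal arrays, with all 7 markers higher in the distal than in the proximal segment. All 3 tested B cell markers were also higher distally (5.93 to 7.18 on distal and 5.83 to 5.91 on proximal arrays), and of 6 adipocyte markers 4 were higher and 2 lower (6.69 to 7.30 on distal and 6.36 to 6.69 on proximal arrays). Over all 11929 genes, 3255 rose and 3283 fell from proximal to distal. The part of these markers, and of the acinar transcripts that were highest proximally, in the segment differences was not tested.

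**Figure D4:**
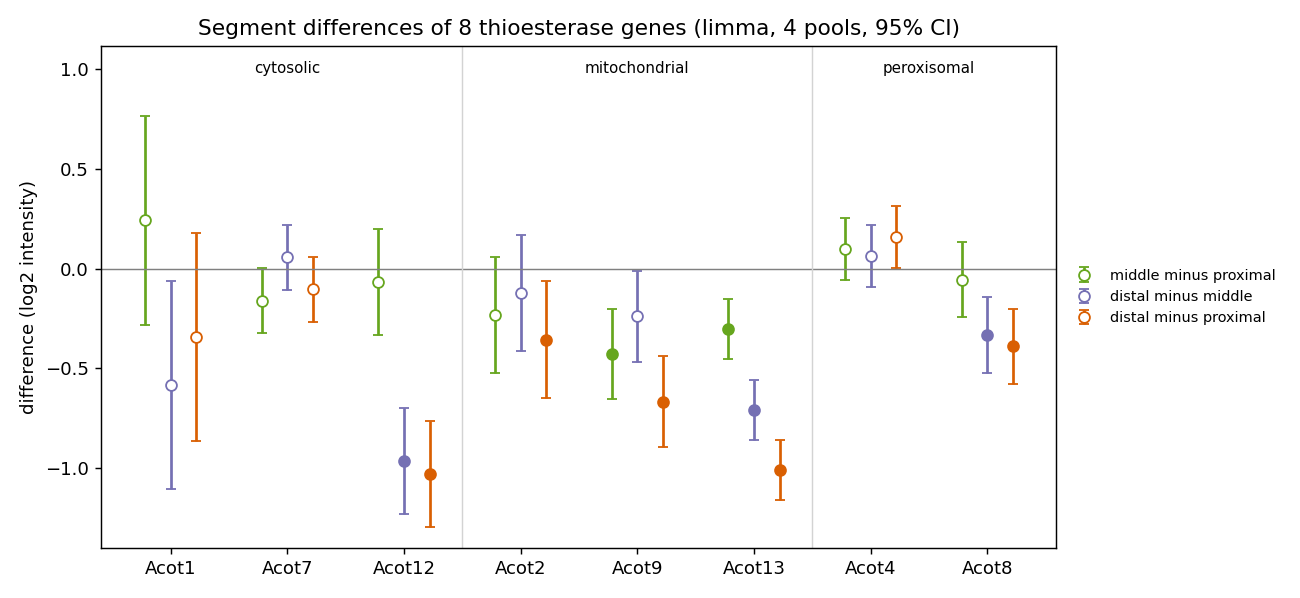
Differences between segments (y axis, log2 intensity) of the 8 thioesterase genes over the limit, by compartment (x axis), from limma over 4 pools with 95% confidence intervals. Filled circles had an adjusted p under 0.05. The distal minus proximal differences of Acot12 and Acot13 lie near -1, while those of Acot1, Acot4 and Acot7 are open.

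After the mean of each segment was taken out, the genes that rose on the high-fat diet varied together over the 12 arrays. Pearson's r was 0.97 between Acot1 and Acot2, 0.95 between Acot1 and Acot4, 0.95 between Acot2 and Acot4, 0.90 between Acot2 and Acot12 and 0.87 between Acot1 and Acot12. The arrays share the diet and age groups, so these values describe the same differences as the tests above. Acot8, which did not pass for diet, had r of 0.77 to Acot1, 0.74 to Acot2, 0.69 to Acot4 and 0.52 to Acot12. Acot13 went the other way within segments, with r of -0.66 to Acot12 and -0.42 to Acot1, and Acot9 was nearly flat against Acot1 (r = 0.09). With the segment means left in, r of Acot13 was 0.77 to Acot12 and 0.12 to Acot1.

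By the same measure, the genes outside the family closest to Acot1 were Etfb (r = 0.99), the beta subunit of the electron transfer flavoprotein of beta-oxidation, Paqr7 (0.98) and Sod1 (0.98), the cytosolic superoxide dismutase. Those closest to Acot2 were Acaa2 (0.99), the last thiolase of mitochondrial beta-oxidation, Paqr7 (0.98) and Dhrs4 (0.98). Acot12 was closest to Hadha (0.95), the alpha subunit of the mitochondrial trifunctional protein, to Hsd17b4 (0.95), the peroxisomal D-bifunctional protein, and to Abcd3 (0.95), a peroxisomal membrane transporter. Acot4 was closest to Sod1 (0.99), Insig1 (0.99) and Vkorc1l1 (0.98). For the members without a diet call the closest genes were Rpn1, Rangap1 and Eif3b (Acot7, r = 0.94 to 0.97), Banf1, Psmb7 and Rdh19 (Acot8, 0.95 to 0.96), Chp2, Heatr6 and Sin3a (Acot9, 0.90 to 0.93) and Ctsd, Zfp771 and Tango2 (Acot13, 0.95 to 0.97), each over 12 arrays. These genes were picked for the highest r among all tested genes, so high values are in part a result of that choice. With the segment means left in, r of the named pairs ran from -0.25 (Acot9 and Sin3a) to 0.98 (Acot8 and Banf1).

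The same fits gave the rest of the acyl-CoA pathway. Over all 11929 genes, 303 rose and 371 fell on the high-fat diet. On the high-fat diet 7 of 17 tested genes of mitochondrial beta-oxidation rose and none fell, led by Acadl (0.84, limma adjusted p = 0.000477), the long-chain acyl-CoA dehydrogenase, and Acaa2 (0.50, adjusted p = 0.00371). Of 19 genes of peroxisomal acyl-CoA metabolism 8 rose and 1 fell, with Acox2, a branched-chain acyl-CoA oxidase, at 0.94 (adjusted p = 0.000905) and Acaa1b, a peroxisomal thiolase, at 0.67 (adjusted p = 0.00153). Of 16 PPARalpha-responsive genes, some of which are also in these lists, 9 rose and none fell, led by Cyp4a10, a fatty acid omega-hydroxylase (1.71, adjusted p = 0.000239).

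The synthetases, which run the opposite reaction, moved both ways. Of 14 tested, 2 rose and 2 fell, the largest being Slc27a2, a very long-chain acyl-CoA synthetase (0.66, limma adjusted p = 0.00234), and Acsm3, a medium-chain synthetase (-0.61, adjusted p = 0.00964). Of 13 genes of coenzyme A synthesis and breakdown 1 rose, Pank3, a pantothenate kinase (0.40, adjusted p = 0.0123). None of the 11 other tested thioesterases passed for diet, and their median was 0.04 beside 0.30 for the 8 Acot genes followed here. Those 11 include 2 further Acot genes, Acot10 (-0.19, limma adjusted p = 0.175) and Acot11 (0.17, limma adjusted p = 0.149). The lists' medians were 0.18 for mitochondrial beta-oxidation, 0.18 for peroxisomal metabolism, 0.06 for the synthetases, 0.01 for coenzyme A metabolism and 0.34 for the PPARalpha-responsive genes.

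With age fewer genes of these lists passed, where 89 of all 11929 genes rose and 254 fell. Of the PPARalpha-responsive genes 3 of 16 rose, led by Pdk4, which inhibits pyruvate dehydrogenase (0.67, limma adjusted p = 0.00493), and Cyp4a10 (0.61, adjusted p = 0.0144). Acaa2 was the 1 of 17 mitochondrial genes that rose (0.25, adjusted p = 0.0464), Slc27a2 the 1 of 14 synthetases (0.30, adjusted p = 0.0464), and none of the 19 peroxisomal genes and of the 11 other thioesterases passed. Of the coenzyme A genes 1 of 13 fell, Slc5a6, a vitamin transporter that carries pantothenate (-0.30, adjusted p = 0.0318). From proximal to distal, 16 of 19 peroxisomal genes fell and none rose, and 10 of 17 mitochondrial genes fell and 3 rose, where 3283 of all 11929 genes fell and 3255 rose.

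**Figure D5:**
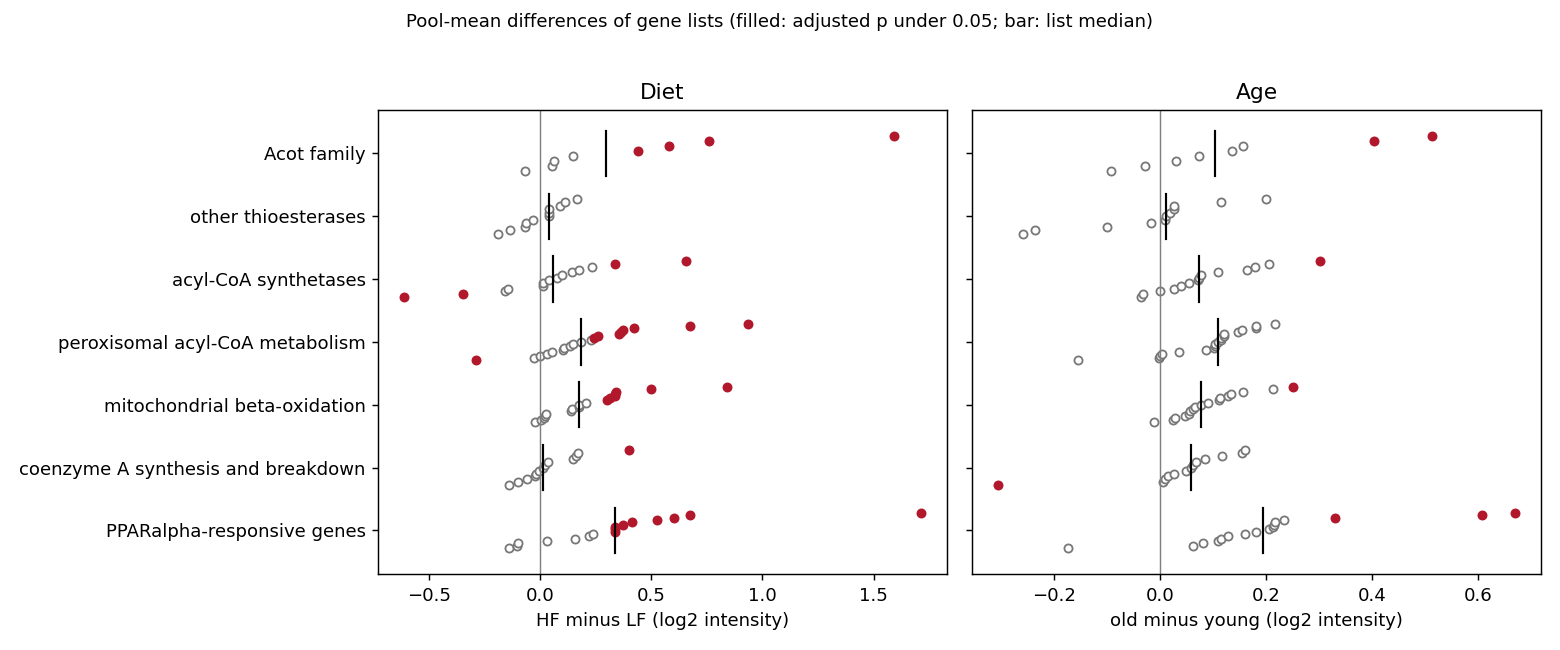
Differences of the pool means (x axes, log2 intensity) for diet (left, high-fat minus low-fat) and age (right, old minus young) of the 8 Acot genes and of 6 gene lists (rows), 1 circle per tested gene. Filled circles had a limma adjusted p under 0.05, and the vertical bar is the median of the list. Acot10 and Acot11 are in the row of other thioesterases. The Acot1 and Cyp4a10 circles lie farthest to the right for diet, at 1.59 and 1.71.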

How the data were processed

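Log2 values of 35556 probe sets (1.80 to 14.49, array medians 5.57 to 5.70) were deposited by the authors, made with RMA from all 12 arrays together; the version is not given in the sources used here. The platform annotation pairs 21789 of them with a single symbol, 1621 with several and 12146 with none. Deposited probe sets are Affymetrix transcript clusters, where the methods describe Entrez-based sets. Genes over an intensity of 50 on at least 1 array were kept, and a list of 23 acinar genes, of which 19 had passed the limit, was removed. limma 3.58.1 (R 4.3.3, statmod 1.5.0) was fitted to the means of the 4 pools (age and diet, 1 residual degree of freedom), to the 12 arrays with age and diet within segment (3 residual degrees of freedom), and to pool plus segment (6 residual degrees of freedom), with Benjamini-Hochberg adjustment over 11929 genes. A prior estimated from all genes added 5.64, 4.34 and 4.12 degrees of freedom to these fits, in that order. The SE over the pool means therefore rests mostly on that prior, not on the gene's own spread. The diet pairs are the repeats for age and the age pairs those for diet, so an interaction of both adds to the error, and all comparisons share arrays. The scripts were tested on simulated data. Python 3.11.15 with pandas 2.3.3 did the rest.

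Members and gene lists were chosen with earlier results of these data known. The genes named are the 10 members, up to 2 genes per list, those that differed most in that comparison, and for each tested member the 3 genes with the highest segment-centred correlation. Apoa4 and the other cell type markers were named after their values were seen. The tests of the diet and age difference for middle against proximal and distal against middle, and of the age difference for distal against proximal, were also added then. Arrays give no count depth; the number of pools limits the precision. Alternatives were another intensity filter, the mean of probe sets, median centring, quantile normalization, a trend with robust variance, acinar genes kept, the pool as a random block or left out, a segment alone, and leaving out arrays, segments or pools.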

Additional observations from a re-analysis of the deposited data

Results flagged for a closer look

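Some members had opposite signs in 2 segments, with both pairs of a segment on the same side, although the test of the difference did not pass in limma. The share of all genes with such signs was not counted, and some of the pairs lay near 0. For diet, Acot9 was higher on the high-fat diet in the distal segment, by 0.40 in old and 0.24 in young mice, and lower in the proximal segment, by -0.14 in old and -0.15 in young mice. The difference of these differences was 0.46 (adjusted p = 0.312), and that of distal against middle 0.34 (adjusted p = 0.280). Acot7 differed in this way between the middle and the proximal segment, by 0.23 (adjusted p = 0.792). Its pairs were 0.24 in old and 0.10 in young mice in the middle segment, and -0.01 and -0.11 in the proximal segment.

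For age, Acot12 was higher in old mice in the distal segment and lower in the middle segment, a difference of 0.56 ± 0.11 (SE, unadjusted p = 0.00143, adjusted p = 0.406), and its middle minus proximal difference was -0.13 (adjusted p = 1.00). The middle pairs of Acot12 were -0.02 on the high-fat and -0.17 on the low-fat diet. Acot9 was lower in old mice in the proximal segment and higher elsewhere, with differences of 0.30 for middle (adjusted p = 0.927) and 0.22 for distal (adjusted p = 0.586) against proximal. Its distal pairs were 0.20 on the high-fat and 0.04 on the low-fat diet. Acot13 had -0.21 for distal against proximal (adjusted p = 0.616). None of the members and 0 of all 11929 genes passed for these age differences, while 1 member at an unadjusted p under 0.05 was found in each of the 3, beside 591 to 1380 genes.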

How the results depend on the processing

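Over the pool means, the 4 diet rises were called under every setting run, except Acot12 without the middle segment, and the age rise of Acot1 under every setting. Leaving out a pool was not run there, since no residual degrees of freedom would be left. The distal minus proximal falls of Acot8, Acot9, Acot12 and Acot13 were called under every setting, each left-out pool included. For age, 1 member was called over the pool means without the intensity filter, and 1 to 2 when a segment was left out. Within segments, the proximal diet count of 1 was 2 with a limit of 100, 4 with the trend and robust variance, and 0 without any proximal array. The middle count of 4 was 1 to 2 without 1 middle array. The distal diet count of 0 was 1 with a limit of 100, the mean of probe sets, median centring, quantile normalization, the random block and the segment alone, 5 with the trend and robust variance, and 0 without any 1 distal array. The distal age count of 0 was 1 with a limit of 100 and 2 with the trend, as was the count for the diet difference of distal against middle. The middle minus proximal count of 2 was 1 to 2 without 1 pool. At 1.5-fold, 18 member pairs of diet and age together passed, beside 7 at 2-fold, all of them diet pairs. The share of all genes past 1.5-fold upwards was 0.545% to 1.55% in the diet pairs and 0.260% to 0.721% in the age pairs.

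Over all genes, with no array, segment or pool left out, the trend with robust variance gave the most calls within segments and over pools, 1429 against 674 for diet and 702 against 343 for age over the pool means, and the fit without an intensity filter the fewest, 182 and 85. Counts within segments lay between 16 and 234 (38) for proximal, 150 and 857 (304) for middle and 35 and 435 (62) for distal diet, and between 0 and 77 (13), 1 and 30 (2) and 31 and 451 (68) for age. For the diet difference they were 5 to 62 (6) for distal against proximal, 3 to 41 (3) for middle against proximal and 7 to 138 (9) for distal against middle. With 1 segment left out the counts over the pool means went down to 131 for diet and 73 for age. With 1 array left out they went down to 9, 27 and 8 for diet and to 0, 0 and 1 for age in the proximal, middle and distal segment, and to 3, 3 and 0 for the diet differences in the order above. With 1 pool left out, they went down to 1566 (2979) for middle minus proximal and 2514 (4127) for distal minus middle.

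Signs were checked for the tested members over segments and between segments, and for some members within segments. In that check a sign changed only among uncalled values, each when 1 segment or pool was left out. Over segments these were diet for Acot9 (-0.0812 to 0.151) and age for Acot8 (-0.0548 to 0.0818), Acot12 (-0.0286 to 0.250) and Acot13 (-0.0707 to 0.0449). Between segments they were middle minus proximal for Acot8 (-0.132 to 0.0242) and Acot12 (-0.128 to 0.0182) and distal minus middle for Acot2 (-0.292 to 0.0125). Within a segment, leaving out 1 array leaves 1 pair, so signs outside that check can change too. In the distal segment, for example, the diet pairs of Acot8 were -0.04 in old and 0.18 in young mice. Those of Acot13 were -0.15 in old and 0.07 in young mice. The causes were not tested. Segments were compared within pools in the main fit. Without the pool term the counts of members called were 2, 3 and 5, as with it.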
